A study of Mus musculus with 8 samples.

Results

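The narrow H3K27ac regions away from gene ends are stretches of the mouse genome where a Cut & Tag library of brown adipocytes had an acetylation peak that was neither broad nor at the start or finish of a gene. The peaks of 4 H3K27ac libraries were merged wherever they overlapped by at least 1 bp, and a merged region was kept when it lay on chromosomes 1 to 19, was at most 10000 bp wide and lay more than 3000 bp from both ends of every protein-coding gene annotated on GRCm38. This gave 346 of 1208 merged regions. The regions were therefore chosen by the presence, position and width of the H3K27ac peaks, and H3K27ac values are given as a description. Tests planned for them were run but are not reported, since the rule used these peaks. EBF2, which the rule did not use, is tested. The other narrow autosomal regions, 371 within 3000 bp of a gene end, and the 285 autosomal regions over 10 kb served as comparison.

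The cells (BAC) came from newborn mice with floxed Cars2 alleles (Cars2 flox/flox): preadipocytes of interscapular brown adipose tissue were made immortal with SV40 large T antigen. Control cells carried an empty pMSCV retroviral vector (Vec, labelled WT and BAC-V), and knockout cells carried the same vector with Cre recombinase (Cre, labelled CarS2-KO and BAC-Cre). Both were selected with hygromycin and were induced to differentiate until day 2 with a mix of IBMX (0.5 mM), indomethacin, dexamethasone, insulin (20 nM) and the thyroid hormone T3 (1 nM), after which only the last pair was given. Each genotype had 2 H3K27ac libraries and 2 EBF2 libraries. The age of the cultures at harvest, and whether the lines were pools or single clones, are not given in the sources used here, the labels call the cell type a preadipocyte although the protocol describes differentiated cells, and no source says that the 2 libraries of a group came from separate cultures, so that their spread may be technical.

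Acetylation of lysine 27 on histone H3 is placed by the acetyltransferases p300 and CBP on nucleosomes at active promoters and active enhancers. A region that carries it far from a promoter is usually read as a candidate enhancer, although an unannotated or internal promoter carries the same mark. EBF2 is a transcription factor that marks the brown adipocyte lineage and opens enhancers of thermogenic genes together with PPARγ, and Cars2 is the mitochondrial cysteinyl-tRNA synthetase, which also makes cysteine persulfide.

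A distance rule that uses only the outer ends of genes leaves promoters that lie inside genes, and 34 of the 346 regions (9.83%) overlapped a RefSeq window around an annotated transcript start (250 bases before to 50 after). Of these, 18 overlapped a window of a protein-coding gene, and 16 overlapped only windows of noncoding genes. An overlap with the window does not always include the start base itself, as at Acot7 and Pank1, whose starts lie outside the region. The 250 bases before the start are shown for the 6 such regions that were at most 1500 bp wide, had a peak in at least 1 Vec and at least 1 Cre list, overlapped a protein-coding window and had the best mean of the score ranks within their lists, because they are where the acetylated sequence itself can be read. One window of a wider region, the one with the fewest CpG dinucleotides under the same conditions, follows for contrast. This choice was made after the values were seen. The sequences are from RefSeq on GRCm38.p6, run 5′ to 3′ on the strand of the gene, and have each CpG dinucleotide in capitals.
Ddx50, chr10:62651219-62651468, minus strand: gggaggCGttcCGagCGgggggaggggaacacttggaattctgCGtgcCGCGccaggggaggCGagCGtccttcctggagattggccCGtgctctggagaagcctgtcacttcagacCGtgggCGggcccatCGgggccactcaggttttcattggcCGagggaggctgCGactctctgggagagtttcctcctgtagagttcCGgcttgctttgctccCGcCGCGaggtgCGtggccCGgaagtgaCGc
4930522L14Rik, chr5:109751588-109751837, minus strand: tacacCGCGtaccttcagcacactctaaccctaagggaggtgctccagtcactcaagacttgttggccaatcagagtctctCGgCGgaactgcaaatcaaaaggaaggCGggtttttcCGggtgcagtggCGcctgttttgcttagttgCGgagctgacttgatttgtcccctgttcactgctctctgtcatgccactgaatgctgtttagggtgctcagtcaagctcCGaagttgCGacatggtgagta
Slc39a10, chr1:46853619-46853868, minus strand: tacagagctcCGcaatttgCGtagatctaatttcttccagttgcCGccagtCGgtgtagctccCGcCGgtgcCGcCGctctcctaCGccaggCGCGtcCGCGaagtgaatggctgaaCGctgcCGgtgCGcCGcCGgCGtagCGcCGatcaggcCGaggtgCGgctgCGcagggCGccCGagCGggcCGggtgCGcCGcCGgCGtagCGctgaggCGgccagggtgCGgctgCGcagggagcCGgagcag
Arhgef7, chr8:11758115-11758364, plus strand: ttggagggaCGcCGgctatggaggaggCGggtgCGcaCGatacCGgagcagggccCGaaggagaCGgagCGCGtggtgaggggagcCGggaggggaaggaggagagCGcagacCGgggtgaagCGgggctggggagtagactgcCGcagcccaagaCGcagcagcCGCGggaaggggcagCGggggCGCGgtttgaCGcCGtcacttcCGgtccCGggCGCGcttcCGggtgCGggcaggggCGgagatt
Gabpb1, chr2:126675353-126675602, minus strand: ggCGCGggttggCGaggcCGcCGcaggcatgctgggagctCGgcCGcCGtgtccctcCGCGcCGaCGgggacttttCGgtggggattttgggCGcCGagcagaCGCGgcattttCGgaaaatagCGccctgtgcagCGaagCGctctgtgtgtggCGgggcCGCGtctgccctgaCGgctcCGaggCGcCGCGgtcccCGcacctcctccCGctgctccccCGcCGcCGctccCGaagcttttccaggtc
Nktr, chr9:121718931-121719180, plus strand: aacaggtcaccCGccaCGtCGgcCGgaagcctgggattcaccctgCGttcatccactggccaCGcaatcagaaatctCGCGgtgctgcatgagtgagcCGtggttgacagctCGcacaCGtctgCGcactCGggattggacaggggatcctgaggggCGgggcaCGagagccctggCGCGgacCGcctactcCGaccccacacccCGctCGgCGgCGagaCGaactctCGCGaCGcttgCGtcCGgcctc
Etl4, chr2:20289663-20289912, plus strand: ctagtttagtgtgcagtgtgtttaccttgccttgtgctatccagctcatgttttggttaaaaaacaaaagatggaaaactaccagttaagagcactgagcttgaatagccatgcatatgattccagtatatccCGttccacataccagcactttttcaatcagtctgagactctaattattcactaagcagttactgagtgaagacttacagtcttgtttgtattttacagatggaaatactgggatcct

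The first 6 windows held 21, 10, 37, 30, 35 and 29 CpG dinucleotides in 250 bases, and the Etl4 window held 1. Among the other wider regions under the same conditions, the Stag1 window held 31 and the Pogz window 11. The median over all 32851 RefSeq windows was 6 CpG dinucleotides with a GC content of 52.4%. The 35 windows in regions of at most 1500 bp had a median of 14 CpG dinucleotides and 59.2% GC, and the 14 windows in wider regions had a median of 4 CpG dinucleotides and 47.2% GC. Several of these windows belong to the same gene and overlap each other, and no test was made over them.

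Ddx50 encodes a nucleolar RNA helicase, Slc39a10 a zinc importer, Arhgef7 a guanine nucleotide exchange factor, Gabpb1 the partner subunit of the ETS factor GABP, and Nktr a cyclophilin of natural killer cells that is widely expressed. The midpoint of the acetylated region lay 141.5 bp after the annotated start of Ddx50, 31 bp after that of Slc39a10 and 25 bp after that of Arhgef7. The midpoint lay 42.5 bp before the start of Nktr, 244 bp after that of 4930522L14Rik and 125 bp after the Gabpb1 start shown. The Etl4 start, in contrast, lay 1733 bp after the midpoint of a region of 7477 bp.

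Short motifs were searched on both strands of the 250 bases. The GC box GGGCGG occurred in 16 of the 35 windows of regions of at most 1500 bp (45.7%) and in 32.7% of all RefSeq windows. In the windows of wider regions it occurred in 2 of 14 (14.3%), and over all 49 windows in 18 (36.7%). CCAAT occurred in 7 of 35 (20%), in 8 of 14 (57.1%) and in 15 of 49 (30.6%) in the same sets, against 33.8% of all RefSeq windows. The ETS core CCGGAAG occurred in 3 of 35 (8.57%), in 0 of 14 and in 3 of 49 (6.12%), against 6.91%, with matches before Ddx50, Arhgef7 and Nktr. The CREB site TGACGTCA was in 0 of the 49 windows that overlapped the regions (1.55% of all windows). Overlaps between motifs were allowed, and these matches describe the letters only.

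The libraries stood apart before any comparison of genotypes. The Vec replicate 1 and Cre replicate 2 lists held 836 and 902 H3K27ac peaks, and the Vec replicate 2 and Cre replicate 1 lists held 646 and 673. The read depth behind the lists is unknown, since the values are peak calls, and a fold enrichment or score can be compared only within a list. In EBF2 Cre replicate 1 the peaks are named with the tag Cars2AKO, and AKO is what the study calls its mice with Adiponectin-Cre, so the main EBF2 comparison is given with and without that library. Of the genes that the study follows, 12 were checked. They were Cars2 and Ebf2 themselves and the thermogenic genes Ucp1, Dio2, Cidea, Elovl3 and Adrb1. The regulators Prdm16, Pparg and Ppargc1a and the lipid genes Cidec and Elovl6 completed the set. None of the 12 was overlapped by an H3K27ac region of any width in any list, and 0 of 12 had one within 50 kb. The lists thus do not show these markers of brown adipocytes.

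H3K27ac peaks lay in 160 of the 346 regions in Vec replicate 1 (46.2%), 77 in Vec replicate 2 (22.3%), 109 in Cre replicate 1 (31.5%) and 164 in Cre replicate 2 (47.4%). The genotypes overlapped, with the lowest value in a Vec library and the highest in a Cre library only 4 regions above the other Vec library. Vec libraries averaged 118.5 ± 58.7 regions and Cre libraries 136.5 ± 38.9 (SD, n = 2 per genotype). The log2 ratio was 0.20, smaller than the spread between replicates. The direction turned without Vec replicate 2 (log2 ratio -0.29) and without Cre replicate 2 (-0.07).

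The regions took a comparable part of each list. They held 38.8% of the narrow autosomal peaks in Vec replicate 1, 33.2% in Vec replicate 2, 36.7% in Cre replicate 1 and 32.8% in Cre replicate 2. Vec libraries averaged 36.0% ± 3.99 and Cre libraries 34.8% ± 2.76 (SD, n = 2 per genotype), a difference of -1.26 percentage points, smaller than the spread between replicates. It was -5.84 points without Vec replicate 2, -7.18 with a stricter score, and turned to 2.07 without Cre replicate 2 and to 0.037 with a distance limit of 10000 bp.

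Most regions belonged to a single list. In all, 245 of 346 (70.8%) had a peak in 1 list, 61 in 2 lists, 17 in 3 lists and 23 (6.65%) in all 4 lists. At gene ends the corresponding share for 1 list was 72.8% and for all 4 lists 2.96%. Of all 1208 merged regions, 25.4% were in all 4 lists, and of the autosomal regions over 10 kb 65.3%. Presence in 2 or more lists held for 47.4% of all merged regions and 29.2% of the 346. Cre replicate 2 alone held 90 regions, Vec replicate 1 alone 70, Cre replicate 1 alone 56 and Vec replicate 2 alone 29.

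**Figure D1:**
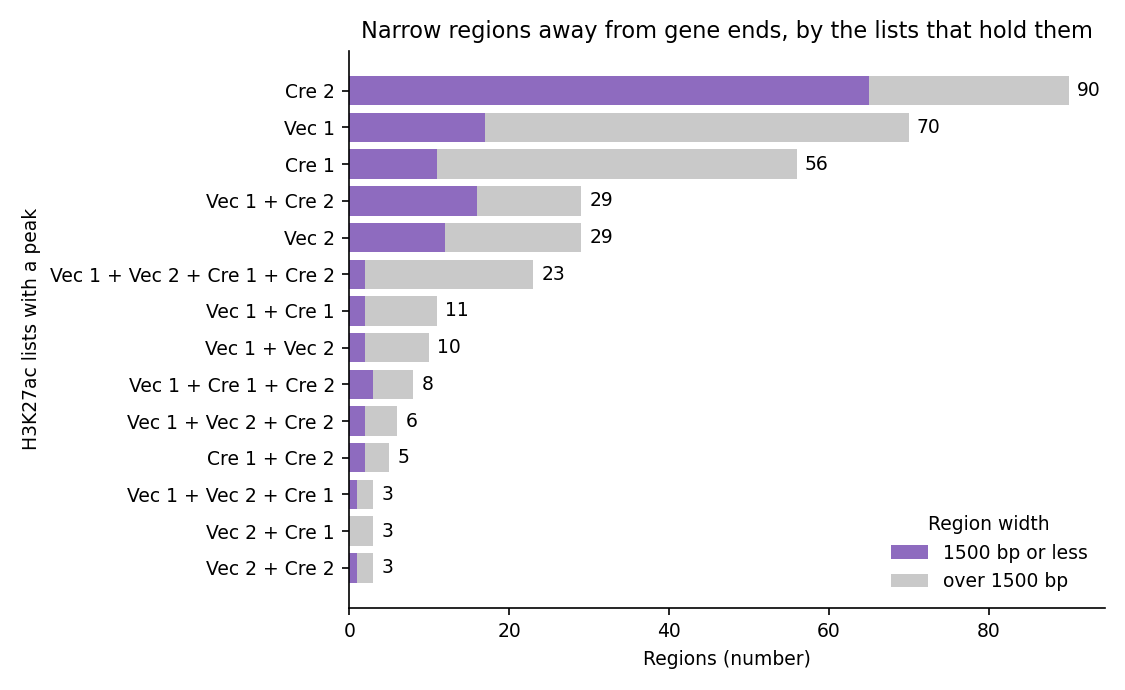
Number of narrow H3K27ac regions away from gene ends (x axis) for each combination of lists with a peak (y axis), split by region width. Regions of Cre replicate 2 alone are the longest bar at 90, of which 65 are at most 1500 bp wide, while 21 of the 23 regions of all 4 lists are wider.

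The lists that shared most regions were of different genotypes. Vec replicate 1 and Cre replicate 2 shared 66 regions, 41.3% of the regions of the first and 40.2% of the second. The Vec replicates shared 42 regions, 26.3% of replicate 1 and 54.5% of replicate 2, and the Cre replicates shared 36, 33.0% of replicate 1 and 22.0% of replicate 2. Vec replicate 1 and Cre replicate 2 are also the lists with the most peaks, and the part of list size in the sharing was not tested.

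Regions that both Vec lists held and no Cre list did numbered 10 of 346 (2.89%), against 3.06% of all 1208 merged regions. Those that both Cre lists held and no Vec list did numbered 5 (1.45%), against 1.41% of all merged regions. Both shares lay close to those of the whole set. Counted with a peak in either list of a genotype and none of the other, the numbers were 109 for Vec and 151 for Cre. Of the 109, 70 were in Vec replicate 1 alone and 29 in Vec replicate 2 alone. Of the 151, 90 were in Cre replicate 2 alone and 56 in Cre replicate 1 alone. No matching share over all merged regions is given, so these counts do not measure a genotype difference. The counts of 10 and 5 also moved with some of the libraries left out. With 2 libraries a group there is no test of a single region, and a missing peak is a value under the caller's threshold, not a measured absence of acetylation.

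The 8 best-ranked of the 10 regions of both Vec lists alone lay near genes of varied function. Their fold enrichments ran from 1.43 to 2.05 in Vec replicate 1 and from 1.44 to 2.42 in Vec replicate 2. The first, chr9:118088512-118090497, lay within Cmc1, a mitochondrial protein of cytochrome c oxidase assembly, 18714 bp from the end of Azi2, an adaptor of the kinase TBK1, with folds of 1.67 and 1.98. The second, chr2:22003671-22005773, lay 173127 bp from the orphan receptor gene Gpr158 with folds of 2.05 and 2.32. The third, chr3:91095503-91098279, lay within S100a7l2 with folds of 1.92 and 2.42.

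The others lay by genes that include a cytokine and a transcription factor. On chromosome 4 there were 2, one at 25967 bp from Ttc39b (folds 1.92 and 1.97) and one at 198872 bp from Nfib (1.43 and 1.44), within the noncoding RNA gene Gm5860. Nfib encodes a nuclear factor I protein. Another was 31363 bp from Tslp, which encodes thymic stromal lymphopoietin (folds 1.74 and 1.98). The remaining ones lay within Cdkal1, a tRNA-modifying enzyme (1.73 and 1.88), and within Katnbl1, 8605 bp from Emc4 (1.71 and 1.92). Of these 8 regions, the one near Gpr158 had EBF2 peaks, in EBF2 Vec replicate 1 and EBF2 Cre replicate 1.

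All 5 regions of both Cre lists alone can be named. The best-ranked, chr4:32250065-32251241, lay inside Bach2, a transcriptional repressor of lymphocytes, 11652 bp from its nearer end, with folds of 1.64 in Cre replicate 1 and 1.72 in Cre replicate 2. The next, chr12:20191198-20197783, lay 42956 bp from Gm32719 with folds of 2.19 and 2.31 and had EBF2 peaks in both Cre libraries and neither Vec library. The third, chr13:65240747-65241979, held the start window of the noncoding gene Gm36445, with folds of 1.85 and 1.64. The last pair, chr9:22845215-22853529 and chr9:22746458-22756105, lay within Bbs9, a subunit of the BBSome of cilia, with folds of 1.95 and 1.86 and of 1.90 and 1.89, and the second of the pair had an EBF2 peak in EBF2 Cre replicate 1. Their scores of 14 and 11 and of 12 and 12 were near the lowest score of 10, against 44 and 61 for the Bach2 region.

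The 23 regions found in all 4 lists included the 2 with the highest scores. The score is 10 times the −log10 of the q-value that the peak caller gave. Among them the fold ran from 1.54 to 2.45 (median 1.97) in Vec replicate 1, from 1.68 to 2.80 (median 2.0) in Vec replicate 2, from 1.68 to 2.63 (median 2.04) in Cre replicate 1 and from 1.84 to 2.50 (median 2.08) in Cre replicate 2. A rank of the peak's score within its own list, as a percent of the peaks of that list, was used to set the lists beside each other.

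Of the 23 regions, 4 ranked higher in both Vec lists than in both Cre lists, where 15.6% of the 307 merged regions of all 4 lists did, and 3 ranked higher in both Cre lists, where 9.77% of the 307 did. The 4 lay near Trappc11, Hnmt, Trappc6b and Cdh3. The 3 lay near Lrrc4c, Gm2244 and Flg2. The other 16 had overlapping ranks.

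**Figure D2:**
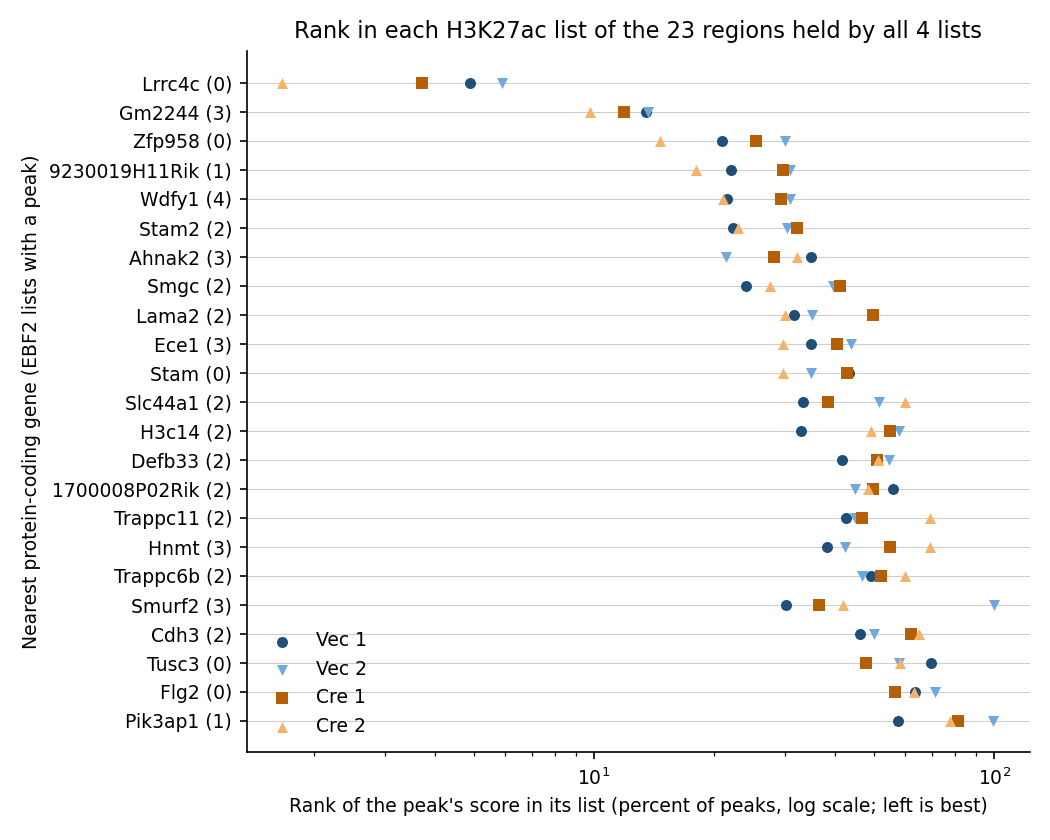
Rank of the peak score in each of the 4 H3K27ac lists (x axis, percent of the peaks in that list on a log scale, best at the left) for the 23 regions found in all of them, each named on the y axis by its nearest protein-coding gene with the number of EBF2 lists that had a peak there. The region nearest to Lrrc4c stands apart at 1.66 to 5.88%, and the region near Smurf2 spreads from 30.3% in Vec replicate 1 to 100% in Vec replicate 2.

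The best-ranked region, chr2:98662610-98667016, was far from any protein-coding gene end, 1030940 bp from Lrrc4c. Its score was 1271 in Vec replicate 1, 747 in Vec replicate 2, 1133 in Cre replicate 1 and 1581 in Cre replicate 2. Its folds were 1.97 in Vec replicate 1, 1.94 in Vec replicate 2 and 1.95 in Cre replicate 1, near the medians of the 23. In Cre replicate 2 the fold was 2.26, above the median of 2.08. This region had a peak in 0 of the 4 EBF2 lists. The second, chr14:19415768-19417814, 115886 bp from Gm2244, had scores of 336, 276, 316 and 270 in the same order, folds of 2.38, 2.80, 2.63 and 2.47, and EBF2 peaks of 1689 to 1832 bp in EBF2 Vec replicate 1 and both EBF2 Cre replicates. The chromosome 2 region lies in a stretch of repeated sequence known to gather reads in many kinds of mouse library, no list of such stretches was applied here, and the part that repeats have in the scores of these 2 regions was not tested.

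The next regions lay in or near annotated genes. One within the noncoding gene Gm6410 on chromosome 8, 45014 bp from Zfp958, had folds of 1.87, 1.88, 1.92 and 2.08 in Vec replicates 1 and 2 and Cre replicates 1 and 2. One inside Wdfy1, an endosomal protein that binds phosphoinositides, had folds of 2.43, 2.31, 2.06 and 2.34. It was the one of the 10 best-ranked regions that had an EBF2 peak in all 4 EBF2 lists, with EBF2 folds of 4.18 and 4.19 in Vec and 3.0 and 2.68 in Cre.

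The endosomal sorting genes Stam2 and Stam each had such a region, the first within Stam2 with folds of 2.21, 2.23, 2.06 and 2.25. A region inside Ahnak2, a very large scaffold protein, had folds of 1.87, 2.79, 2.59 and 2.25 in the same order of lists. Others lay 45549 bp from Smgc, a salivary gland protein (2.45, 2.26, 2.17 and 2.50), 202400 bp from the laminin chain gene Lama2 (1.99, 2.17, 1.89 and 2.41) and 7280 bp from Ece1, the endothelin-converting enzyme (1.94, 1.99, 2.21 and 2.39). A region 6843 bp from 9230019H11Rik on chromosome 10 had 1.63, 1.68, 1.68 and 1.91. In none of these 7, Stam included, did the ranks separate the genotypes.

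Fold enrichment was higher away from gene ends than at them in every list. The median fold was 1.67 against 1.59 in Vec replicate 1, 1.94 against 1.76 in Vec replicate 2, 1.91 against 1.73 in Cre replicate 1 and 1.85 against 1.68 in Cre replicate 2. The peak score went the other way, with a median of the highest score of 16 away from gene ends and 34 at them. In the same order of lists, peaks away from gene ends had median scores of 16.5, 16, 14 and 22. The lowest score was 10. Many of these folds thus belong to peaks near the caller's threshold, and the higher fold does not mean a stronger call. The mean log2 ratio of the folds was 0.12, with 4 of 4 libraries in the same direction. The regions also differed in width, with a median of 2237 bp against 1073 bp. With both kinds limited to 1500 bp, a setting added after the data were seen, the mean log2 ratio was 0.15.

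Width divided the 346 regions into a compact and a broader kind. A total of 136 regions were at most 1500 bp wide (median 1081.5 bp) and 210 were wider (median 3539 bp), whereas at gene ends 96 regions were at most 1000 bp wide and 218 were between 1000 and 1500 bp, of 371. The limit of 1500 bp was set after the widths were seen, and the differences between the kinds are descriptions. The median of the highest score was 27.5 for the compact regions and 13 for the broader ones, and 37 for the compact regions at gene ends.

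Compact regions were spread unevenly over the lists. They numbered 45 in Vec replicate 1, 20 in Vec replicate 2, 21 in Cre replicate 1 and 91 in Cre replicate 2, so that Cre replicate 2 stood far above the rest and Vec replicate 2 and Cre replicate 1 were alike. Broader regions numbered 115, 57, 88 and 73 in the same order. Start windows overlapped 26 of the 136 compact regions (19.1%) and 8 of the 210 broader ones (3.81%). Of the 34 regions with a start window, 18 had a peak in Vec replicate 1, 3 in Vec replicate 2, 5 in Cre replicate 1 and 28 in Cre replicate 2.

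**Figure D3:**
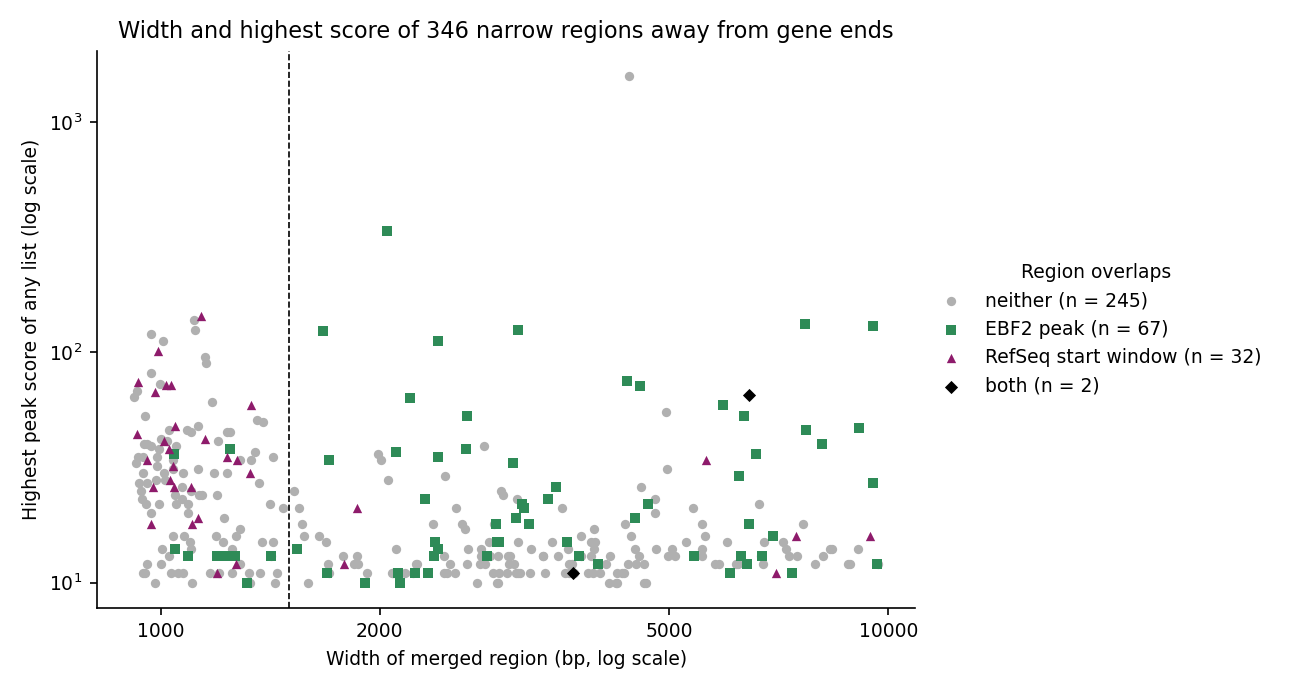
Width of each of the 346 regions (x axis, bp, log scale) and the highest score of any list (y axis, log scale), marked by whether the region overlapped an EBF2 peak, a RefSeq start window, both or neither. Start windows gather left of the dashed line at 1500 bp and EBF2 peaks right of it, where most regions lie near the lowest score of 10.

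The named regions with a start window had moderate folds in their lists. The Ddx50 region, chr10:62650582-62651571, had folds of 1.78 in Vec replicate 1 and 1.99 in Cre replicate 2 and ranks of 212 and 197. The Slc39a10 region, chr1:46853079-46854095, had folds of 1.65 and 1.67 in the same lists. The Arhgef7 region, chr8:11757878-11758902, had 1.57 and 1.92, and was also the H3K27ac region of any width nearest to Cars2, at 0.207 Mb. None of the 3 had a peak in Vec replicate 2 or Cre replicate 1.

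Gabpb1 (1.42 and 1.53), Phf14 (1.84 and 2.02), Atp2c1 (1.62 and 1.63), Nktr (1.37 and 1.59) and Stag1 (1.27 and 1.41) had peaks in the same 2 lists, given as Vec replicate 1 and Cre replicate 2. Phf14 encodes a chromatin reader, Atp2c1 a calcium pump of the Golgi and Stag1 a cohesin subunit. The region at 4930522L14Rik, in contrast, had peaks in both Vec lists and Cre replicate 1, with folds of 2.05, 2.10 and 2.36. Mga, Ecpas, Smim14 and Nfkb2 had a peak in Cre replicate 2 alone, with folds from 1.43 for Ecpas to 2.06 for Mga, and Fancc and Pank1 in Vec replicate 1 alone.

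Noncoding genes overlapped 79 of the 346 regions (22.8%), among them long noncoding RNA genes in 51 and pseudogenes in 22. The compact region with the highest score, 144, was chr9:78175487-78176622, which covered Rn7sk and the start of the long noncoding RNA gene C920006O11Rik. Rn7sk encodes 7SK, the small nuclear RNA that holds the elongation factor P-TEFb inactive. Its folds were 1.89 in Vec replicate 1, 1.93 in Cre replicate 1 and 2.19 in Cre replicate 2, at ranks 171, 169 and 131, and it had no peak in Vec replicate 2. This region and the next were singled out after their values were seen.

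A pair of regions on chromosome 13 covered the copies of a microRNA gene. Mir683-1 lay in chr13:50543132-50546583, with a fold of 1.71 in Vec replicate 1 alone, and Mir683-2 in chr13:50600924-50602245, with a fold of 1.86 in Cre replicate 2 alone. RefSeq gives both hairpins the same sequence, so that reads from the copies may not be told apart, and both the same mature miRNA, shown to identify it with its seed, bases 2 to 8, in capitals.
mmu-miR-683: cCUGCUGUaagcuguguccuc

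The regions lay inside a protein-coding gene in 152 of 346 cases (43.9%), where 38.7% of the autosomal bases open to the rule did. Compact regions did so in 52.9% and broader regions in 38.1%. The median distance to the nearest protein-coding gene end was 37.2 kb, from 3.25 kb to 1325 kb, and 96 regions (27.7%) had none within 100 kb. The farthest region, chr2:46442814-46443858, lay 1325370 bp from Zeb2 and within the long noncoding RNA gene Gm13470, with a fold of 1.82 in Cre replicate 2 alone.

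The gene lists were reached by few regions, as were protein-coding genes as a whole. A region was assigned to every protein-coding gene that it lay in and to the one with the nearest end within 100 kb, which reached 212 of 21900 protein-coding genes (0.968%). Of 51 brown adipocyte and thermogenesis genes, 1 was reached (1.96%), of 82 adipogenesis and lipid metabolism genes 2 (2.44%), of 77 insulin and growth factor genes 1 (1.30%), of 82 actin cytoskeleton and adhesion genes 2 (2.44%), of 78 extracellular matrix and mesenchyme genes 4 (5.13%, 1 of them the transcription factor gene Tead4) and of 96 chromatin and transcription genes 2 (2.08%). Of the marker genes of myocytes (20), macrophages and immune cells (18), endothelial cells (12), hepatocytes (12) and neurons (12), 0 were reached. No test was made of these counts.

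Lipid droplet and fatty acid genes gave the lipid entries. Plin2, which encodes the lipid droplet coat protein perilipin 2, held 2 regions. The first, chr4:86644731-86650126, had folds of 1.78 in Vec replicate 1, 1.88 in Vec replicate 2 and 1.93 in Cre replicate 2. The second, chr4:86632799-86638807, had 1.71 in Vec replicate 1 and 1.90 in Cre replicate 2. Neither had a peak in Cre replicate 1, and neither overlapped an EBF2 peak.

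Elovl5, an elongase of polyunsaturated fatty acids, lay 5912 bp from a region with a score of 120 and a fold of 1.59 in Vec replicate 1 alone. Pank1, a pantothenate kinase of coenzyme A synthesis, was the brown adipocyte entry, with an internal start window that overlapped a region with a fold of 1.38, also in Vec replicate 1 alone. Both genes thus rest on 1 library.

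The signalling, adhesion, matrix and mesenchyme, and chromatin entries also rested mostly on single lists. Pde4d, a cAMP phosphodiesterase, held 3 compact regions with folds of 2.12, 1.82 and 1.54, all in Cre replicate 2 alone. Itgav (integrin αV, 1.80) and Fbln2 (fibulin 2, 1.37) held a region in Cre replicate 2 alone. Regions outside genes of the lists, also in Cre replicate 2 alone, lay 71873 bp from Thbs1 (thrombospondin 1, 1.55) and 25884 bp from the TEAD factor gene Tead4 (1.93). Macf1, a linker of actin and microtubules, held one in Vec replicate 1 alone (1.46), and the forkhead factor gene Foxp1 one in Cre replicate 1 alone (1.64). The region assigned to Lamc1, a laminin chain, lay outside the gene at 41317 bp, in Vec replicate 2 alone (1.98). Bach2, given above, was the one gene of these lists with a region in both replicates of a genotype and neither of the other.

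No region lay near the 12 study genes that were checked. The nearest was 0.169 Mb from Elovl3, followed by 0.207 Mb from Cars2 and 0.378 Mb from Pparg, and the farthest was 33.3 Mb from Elovl6. Ucp1, the uncoupling protein of brown fat, lay 7.57 Mb from the nearest region.

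EBF2 peaks overlapped 69 of the 346 regions (19.9%) in at least 1 of the EBF2 lists, where 37.3% of all 1208 merged regions were overlapped. They were in 34 regions in EBF2 Vec replicate 1, 11 in Vec replicate 2, 49 in Cre replicate 1 and 36 in Cre replicate 2. The 2 Cre values were above both Vec values, with EBF2 Vec replicate 2 far below the rest and 2 regions between EBF2 Vec replicate 1 and EBF2 Cre replicate 2. Vec libraries averaged 22.5 ± 16.3 regions and Cre libraries 42.5 ± 9.19 (SD, n = 2 per genotype). The log2 ratio was 0.92, with p = 0.33 by an exact two-sided permutation test, the smallest p that the design allows.

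The EBF2 lists also differed in size, with 724 and 533 peaks in Vec and 660 and 676 in Cre. The log2 ratio was 0.68 without EBF2 Cre replicate 1, 0.32 without EBF2 Vec replicate 2 and 1.95 without EBF2 Vec replicate 1. Some EBF2 peaks were far wider than the regions, up to 801 kb, and with EBF2 peaks of at most 10 kb the counts were 27, 6, 30 and 25, a log2 ratio of 0.74 (p = 0.667, exact two-sided permutation test). Here EBF2 Cre replicate 2 was below EBF2 Vec replicate 1, so that the genotypes overlapped.

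Regions away from gene ends had an EBF2 peak more often than regions at gene ends in each EBF2 library. The shares were 9.83% against 2.96% in EBF2 Vec replicate 1, 3.18% against 0.539% in Vec replicate 2, 14.2% against 3.50% in Cre replicate 1 and 10.4% against 2.16% in Cre replicate 2. The mean difference was 7.10 percentage points with 4 of 4 libraries in the same direction (p = 0.13, exact two-sided sign-flip test, the smallest p that 4 libraries allow). This comparison with gene ends was not among the planned tests. The share of bases in EBF2 peaks was 9.75% against 5.29%, 2.57% against 1.07%, 13.2% against 7.29% and 9.46% against 5.01% in the same order.

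Both kinds were then split at a width of 1500 bp, a step added after the data were seen. Among regions of at most 1500 bp (136 away from gene ends and 314 at them), the shares with an EBF2 peak were 2.21% against 1.27% in EBF2 Vec replicate 1, 1.47% against 0% in Vec replicate 2, 4.41% against 0.955% in Cre replicate 1 and 5.15% against 0% in Cre replicate 2, on 2 to 7 regions with a peak away from gene ends and 0 to 4 at them. Among wider regions (210 with a median of 3539 bp and 57 with a median of 2716 bp, so that width still differed) the shares were 14.8% against 12.3%, 4.29% against 3.51%, 20.5% against 17.5% and 13.8% against 14.0% in the same order. The direction thus held in all 4 libraries among the compact regions and in 3 of 4 among the wider ones, where the differences were small and the share of bases was higher at gene ends in 3 of 4 libraries (11.05% against 11.29%, 2.73% against 2.72%, 14.8% against 17.3% and 10.2% against 12.7%). Regions over 10 kb had EBF2 peaks in 47.4 to 65.6% of cases. Among the 346 regions, EBF2 Vec replicate 1 and Cre replicate 1 shared the most, 25 regions (73.5% of the first and 51.0% of the second), and the Cre replicates shared 24 (49.0 and 66.7%), with the Vec replicates at 7 (20.6 and 63.6%).

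Within the 346 regions, EBF2 peaks were commonest where H3K27ac was found in every list. They overlapped 18 of the 23 regions of all 4 H3K27ac lists (78.3%), 5 of 17 of 3 lists (29.4%), 11 of 61 of 2 lists (18.0%) and 35 of 245 of 1 list (14.3%). In the separate EBF2 libraries, the regions of all 4 lists had a peak in 12, 3, 16 and 10 of 23 cases, given as Vec replicates 1 and 2 and Cre replicates 1 and 2, and with EBF2 peaks of at most 10 kb in 12, 3, 15 and 9. The regions of all 4 lists had a median width of 4407 bp against 2050 bp for those of 1 list, and the part of width in this gradient was not tested. Of the compact regions 9 of 136 (6.62%) and of the broader regions 60 of 210 (28.6%) overlapped an EBF2 peak.

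**Figure D4:**
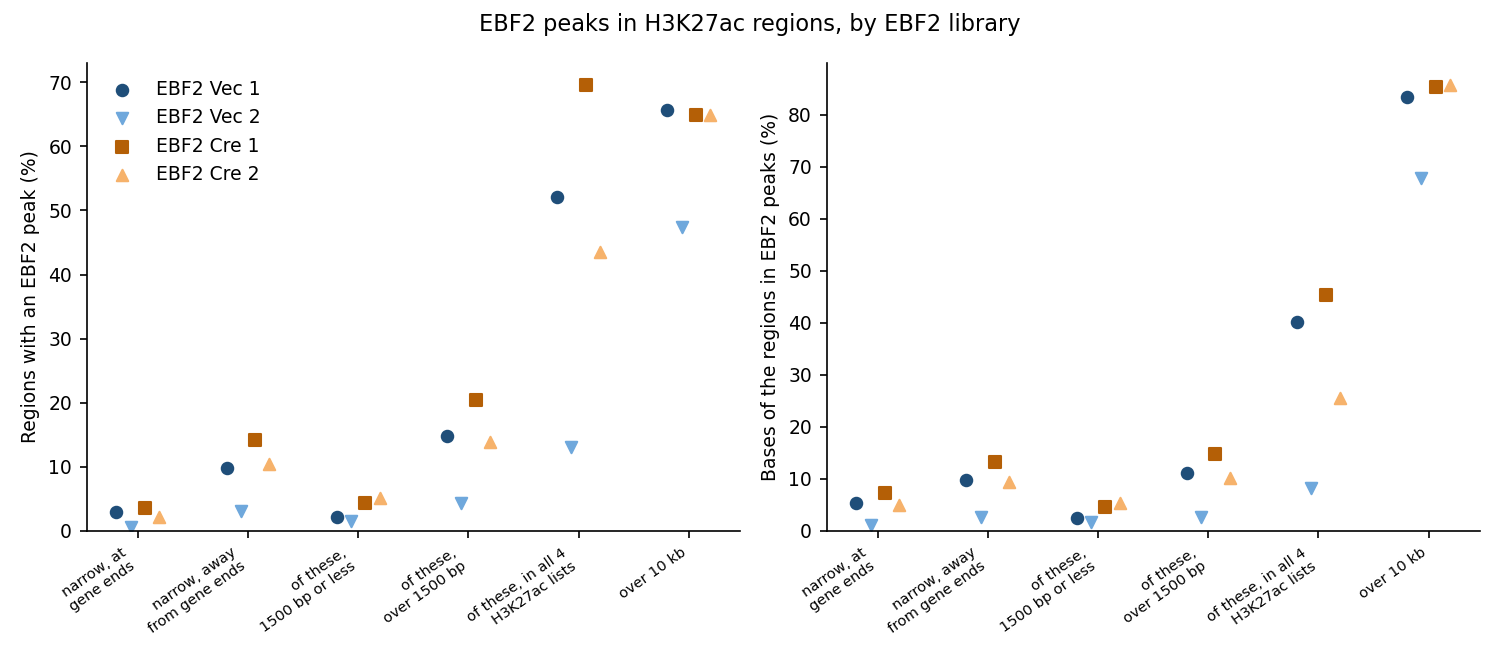
Share of H3K27ac regions with an EBF2 peak (left, percent of regions) and share of their bases in EBF2 peaks (right, percent of bases) for 6 sets of regions, with 1 point for each EBF2 library. Each library has a higher share away from gene ends than at them over all widths, and the regions of all 4 H3K27ac lists lie between 13.0% in EBF2 Vec replicate 2 and 69.6% in EBF2 Cre replicate 1.

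The regions with the best-ranked EBF2 peaks were of 2 sorts. Some overlapped EBF2 peaks no wider than themselves. Besides the regions near Gm2244 and within Wdfy1 and Ahnak2, this held for chr11:106944043-106948411, 23296 bp from Smurf2, a ubiquitin ligase of TGF-β and BMP signalling, with EBF2 folds of 2.58 in Vec replicate 1, 2.47 in Cre replicate 1 and 2.21 in Cre replicate 2 under peaks of 3083 to 3534 bp. It also held for chr8:106481894-106490008, 20844 bp from Cdh3, P-cadherin, with 4.19 in Vec replicate 2 and 2.77 in Cre replicate 1 under peaks of 1919 and 6017 bp in a region of 8115 bp.

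The others lay inside much wider EBF2 peaks. The regions near Gm46425 on chromosome 13, chr13:65970502-65971548 and chr13:65988306-65991995, shared the same EBF2 peaks, of 195266 bp in Vec replicate 1, 801170 bp in Cre replicate 1 and 198531 bp in Cre replicate 2, with folds of 5.73, 7.88 and 8.09. The H3K27ac fold of the first was 1.96 in Vec replicate 2 alone, and of the second 1.63 in Vec replicate 1 alone. Regions near Slc22a29, Gm10323 and Slc44a1, the last a choline transporter, lay under EBF2 peaks of 188681 to 348690 bp, of up to 554769 bp and of 59725 to 78343 bp. A wide EBF2 peak over a narrow region is not a measure of EBF2 at that region.

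The regions were not spread evenly along the chromosomes. They ranged from 4 on chromosomes 16 and 17 to 40 on chromosome 13, and 166 of 346 (48.0%) lay within 100 kb of another. Runs of at least 5 regions with gaps of at most 100 kb held 73 regions (21.1%) in 11 places. The limits of 5 regions and 100 kb were set after the positions were seen.

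**Figure D5:**
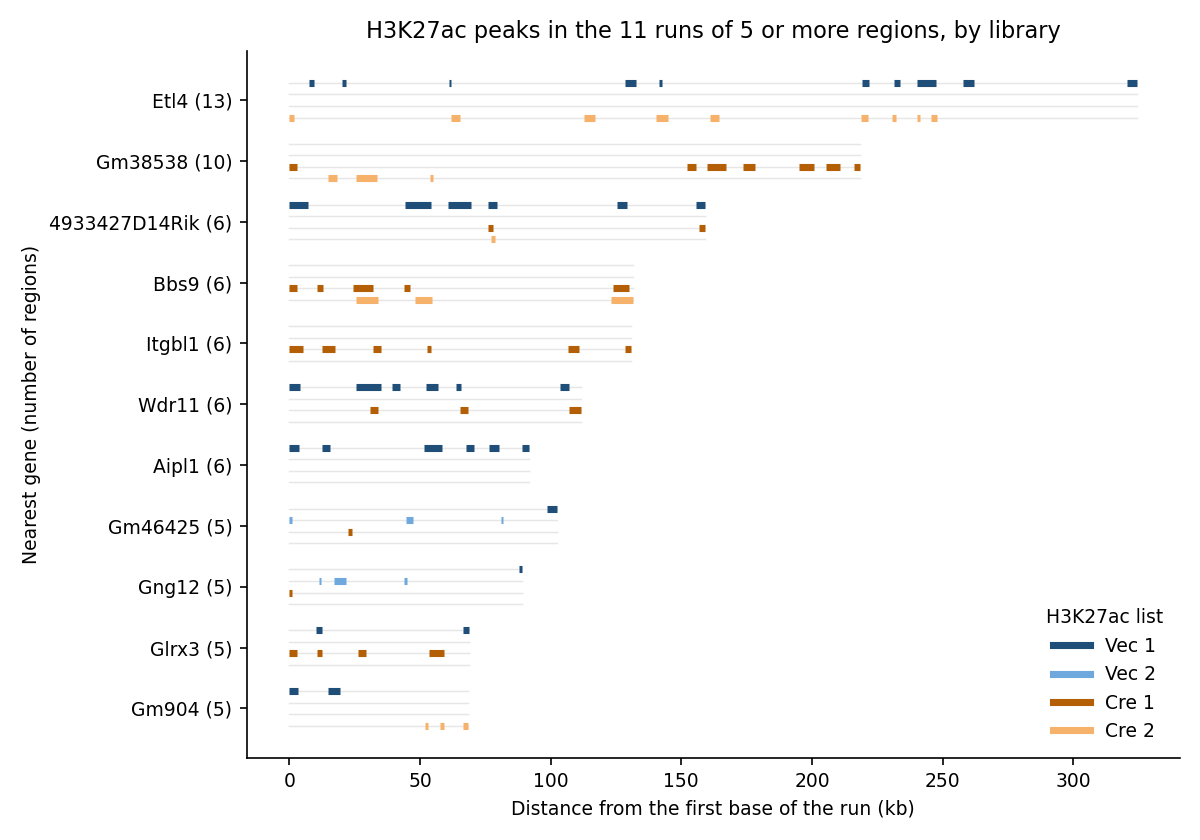
H3K27ac peaks along the 11 runs (y axis, nearest gene with the number of regions) by distance from the first base of the run (x axis, kb), with 1 line for each list. Most runs draw on 1 or 2 lists: the Etl4 run has peaks in Vec replicate 1 and Cre replicate 2 and the Itgbl1 run in Cre replicate 1 alone.

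The longest run spanned 325 kb inside Etl4, also known as Skt, a gene of the intervertebral disc. It had 13 regions, 10 with a peak in Vec replicate 1 (folds 1.61 to 1.67), 8 in Cre replicate 2 (1.83 to 1.97) and 0 in Vec replicate 2 and Cre replicate 1. Near Gm38538 on chromosome 12, 10 regions in 218 kb had peaks in Cre replicate 1 (7) and Cre replicate 2 (3), and no region there had both. Near Aipl1, 6 regions were in Vec replicate 1 alone, and 6 within Itgbl1 were in Cre replicate 1 alone.

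Within Bbs9 the run of 6 regions was in the Cre lists only, 5 in replicate 1 and 3 in replicate 2, and held 2 of the 5 regions that both Cre lists alone had. A run of 6 that began in Wdr11 and lay mostly outside it was in Vec replicate 1 (6) and Cre replicate 1 (3). Scores inside the runs were between 10 and 23, except for a score of 39 near Gng12. None of the 73 regions was in all 4 lists, and 13 were in 2 or more. Without the runs, 273 regions remained, with peaks in 126, 71, 80 and 146 and a log2 ratio of Cre to Vec of 0.20, the same as over all regions to 2 decimals.

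Regions away from gene ends often neighboured a broad one. Of the 346, 127 (36.7%) lay within 50 kb of a merged region over 10 kb, compared with 41 of 371 at gene ends (11.1%). The share was 101 of 210 for broader regions (48.1%) and 26 of 136 for compact regions (19.1%). Regions of the same neighbourhood may not be independent and were not treated as replicates.

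The limits of the rule passed through similar regions. Just inside the width limit were regions of 9680 bp near 4933427D14Rik (highest score 12), 9648 bp in Bbs9 (12) and 9527 bp in Wdfy1 (130), and just outside it regions of 10034 bp near Slc44a1 (16), 10164 bp near Gng12 (14) and 10229 bp near Ttc39b (12). Just inside the distance limit were regions at 3250 bp from Adcyap1r1 (13), 3305 bp from Slc13a5 (13) and 3362 bp from Sfi1 (37). Just outside it were regions at 2906 bp from Vmn2r31 (10), 2874 bp from Vmn2r41 (10) and 2837 bp from Atad2b (47).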

How the data were processed

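Cut & Tag libraries of H3K27ac and EBF2 from Vec and Cre brown adipocytes were analysed, 2 per antibody and genotype. The submitters' processing notes name bcl2fastq 2.17, Trimmomatic 0.33, HISAT2 2.2.1, MACS2 2.2.7 and the build mm10, and the authors deposited 1 peak list per library, broad for H3K27ac and narrow with a summit for EBF2. Each deposited peak has a score, a fold enrichment (a ratio) over the caller's background, and p-values and q-values as −log10. The caller's settings and any control library are not given in the sources used here. Depth is unknown, so no counting interval could be given.

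Merging, overlaps (at least 1 bp) and distances were computed with Python 3.11.15, numpy 2.4.6 and pandas 2.3.3, figures were drawn with matplotlib 3.10.9, and the merging and tests were checked on simulated peak lists. Genes, start windows and miRNAs were those of RefSeq on GRCm38.p6 (21900 protein-coding genes). Where several peaks of a list lay in a region, the one with the highest score gave its values. EBF2 libraries were compared by exact two-sided permutation tests at a threshold of 0.05, which 2 libraries per group, or 4 in the comparison with gene ends, cannot reach. H3K27ac values chose the regions, so the tests planned for them were run but are not reported.

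Named regions were the 10 best by mean score rank in all 4 lists, up to 8 present in both lists of 1 genotype and neither of the other, the 10 best by EBF2 rank among regions with peaks in at least 2 EBF2 lists, up to 5 per gene list, and the 3 on each side of each limit. The regions and gene lists were chosen with earlier results of these data known. Alternatives were a stricter score, merging within 500 bp, other width and distance limits, all annotated genes, equal numbers of peaks, a cover of 50% for EBF2, a peak in either replicate, a replicate block and leaving out each library. Sequences of the regions themselves were not analysed here, since no genome was used. Deletion of Cars2 cannot be checked from peak lists.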

Additional observations from a re-analysis of the deposited data

How the results depend on the processing

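The median fold ratio to gene-end regions kept its direction in 10 of 10 alternatives (log2 0.08 to 0.18) and with any library left out (0.10 to 0.13), and the EBF2 log2 ratio in 18 of 18 (0.32 to 1.95, which is also the range with a library left out). The log2 ratio of regions per H3K27ac list ran from -0.29 to 0.66 with a library left out, turning without Vec replicate 2 and without Cre replicate 2, and was 0.20 to 0.78 in the settings added after the data were seen (compact regions only, runs left out). With equal numbers of best-scoring narrow peaks per list this log2 ratio was 0.067. The share of narrow peaks ran from -5.84 to 2.07 percentage points with a library left out, turning without Cre replicate 2, and was -7.18 with a stricter score and 0.037 with a distance limit of 10000 bp, where it turned. The 10 regions of both Vec lists alone became 5 with a stricter score, 2 among compact regions, 109 with a peak in either replicate, and 13 to 89 with a library left out, most (89) without Vec replicate 2. The 5 of both Cre lists alone became 2 with a stricter score, with a width limit of 5000 bp or among compact regions, 3 with equal numbers of peaks or without the runs, 151 with a peak in either replicate, and 5 to 101 with a library left out, most (101) without Cre replicate 1. Leaving out a library loosens these counts by construction, since the genotype then rests on 1 list. Replicate numbers are only names here. With the numbers as a replicate block, the log2 ratio of regions was 0.27, the share difference -1.26 points and the EBF2 log2 ratio 1.12 (exact p = 0.5), where 2 pairs allow no p under 0.5. Over the other EBF2 alternatives, exact p ranged from 0.33 to 0.67. Depth is unknown, 2 EBF2 libraries per genotype allow no p under 0.33, and the EBF2 comparison with gene ends over 4 libraries allows none under 0.13.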
